A study of Mus musculus with 2 samples.

Results

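The 10 genes described here encode the cyclins, cyclin-dependent kinases (CDKs) and CDK inhibitors that act in G1 of the cell cycle: Ccnd1, Ccnd2, Ccnd3, Ccne1, Ccne2, Cdk2, Cdk4, Cdk6, Cdkn1b and Cdkn2c. They were chosen by name and role, with no threshold on a measured value, and all 10 were found among the 43346 mouse genes quantified. D cyclins pair with Cdk4 or Cdk6 and start the phosphorylation of the retinoblastoma protein, which releases E2F factors. E cyclins pair with Cdk2 and carry the cell into S phase. p27 (Cdkn1b) binds cyclin-CDK complexes, and p18 (Cdkn2c) binds Cdk4 and Cdk6. In the thymus, cyclin D3 is known for the expansion of immature thymocytes after the pre-T-cell receptor signal, and loss of p27 or p18 enlarges the organ.

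The tissue was thymus of strain B6NCrl mice at birth (postnatal day 0), with no treatment or allele named. One group of 2 libraries was made, from pup 6 (replicate 1) and pup 7 (replicate 2) of a C57/Bl6 female. Each library began with 13 pg of total RNA over 200 nt, given as 1 cell-equivalent, so a library samples tissue RNA at the scale of 1 cell and not a sorted cell. The labels list the same donor for both libraries and no sex, so animal, RNA handling and amplification cannot be told apart within the SD of the 2 replicates. With 1 group there was no comparison between conditions to test, and every difference between the pups below is a description.

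The libraries held 27003123 and 32980032 expected counts, of which 25999043 and 31902773 were on mouse genes. At least 1 count was found for 10275 and 11764 genes. Of 15 T-lineage markers, 14 were read in both libraries, with a summed level of 16377 and 16164 TPM, led by Trbc2, Trbc1 and Lck, and only Cd5 was at 0 in 1 library. The 10 markers of CD4+ CD8+ double-positive thymocytes summed to 1984 and 2666 TPM, and the 8 of early progenitors to 116 and 103 TPM, with Hhex and Lyl1 at 0 in both libraries. Markers of other cells were present too. The 12 thymic epithelial markers summed to 2600 and 2913 TPM, with Cldn3 at 0 in both libraries, and the 8 erythroid markers to 3527 and 9133 TPM, with Klf1 at 0 in both. The sums were 1602 and 1471 TPM for mesenchyme, 530 and 958 TPM for macrophages and dendritic cells (Itgax at 0 in both), 290 and 121 TPM for endothelium (Kdr, Tek and Emcn at 0 in both) and 327 and 540 TPM for B cells (Pax5 at 0 in both). The 10 cardiac and skeletal muscle markers summed to 1665 and 487 TPM. Their part in the values of the cell-cycle genes was not tested. In tissue RNA, fewer cells of a type and less RNA per cell cannot be told apart.

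Levels are given in TPM (a read count corrected for transcript length and for library size), rescaled to mouse genes. Genes are compared by these levels, except where shares of counts are named. Of the 10 genes, 7 had at least 1 count in both libraries, 2 (Ccne1 and Ccne2) in replicate 1 only, and 1 (Ccnd1) in neither. Among 21474 protein-coding genes, 32.1% were read in both libraries and 48.6% in neither. Summed over the 10 genes, the level was 1930 TPM in replicate 1 and 1703 TPM in replicate 2, or 1817 ± 160 TPM (SD, n = 2).

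**Figure D1:**
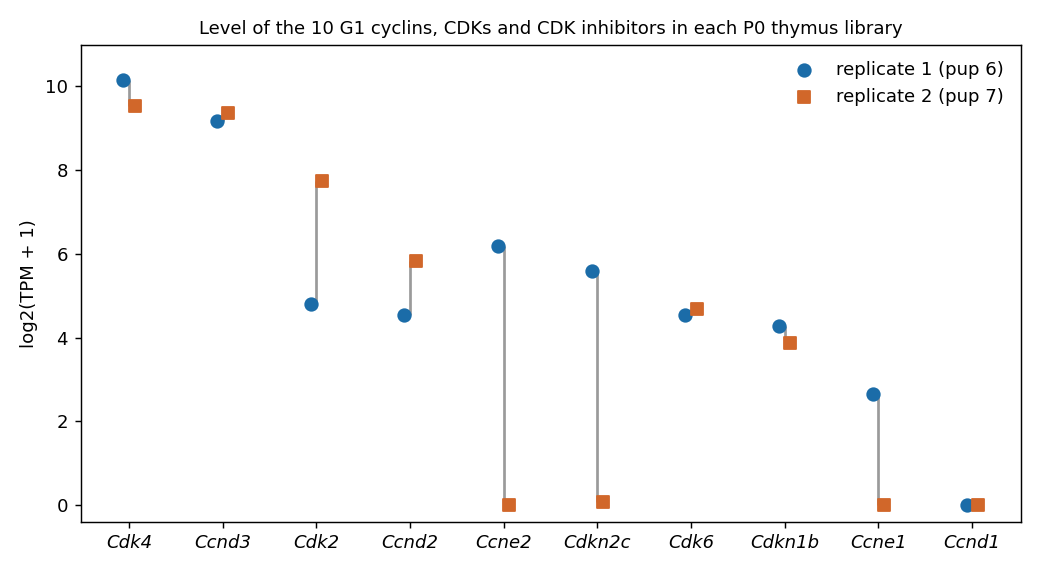
Level of each gene in the 2 libraries, as log2(TPM + 1), in order of mean TPM; each point is 1 library and the grey line joins the pair. Cdk4 and Ccnd3 lie above all other genes in both libraries, while Ccne2, Cdkn2c and Ccne1 are well above 0 in replicate 1 only.

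Some of the genes differed in the transcripts that their reads were assigned to, and 2 sets of sequences show a stretch where those transcripts differ. Both were read from the transcript sequences of GENCODE M21, located by its exon positions on GRCm38, and are written on the strand of the gene. Cdk2-202 holds a coding exon of 144 bases (48 codons) that Cdk2-201 lacks, at chr10:128699976-128700119 on the minus strand. It is shown in capitals with 15 coding bases on either side, above the direct junction of Cdk2-201.
Cdk2-202: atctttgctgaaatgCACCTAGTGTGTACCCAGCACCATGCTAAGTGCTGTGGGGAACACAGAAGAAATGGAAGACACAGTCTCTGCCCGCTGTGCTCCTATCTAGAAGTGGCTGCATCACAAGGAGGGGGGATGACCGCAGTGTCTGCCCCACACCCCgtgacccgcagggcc
Cdk2-201: atctttgctgaaatggtgacccgcagggcc
Ccne2-207 and Ccne2-201 differ near the start codon by 3 bases, in capitals, at chr4:11192815-11192817 on the plus strand, where the next exon begins at 1 of 2 neighbouring acceptor sites.
Ccne2-207: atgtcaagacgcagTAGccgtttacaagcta
Ccne2-201: atgtcaagacgcagccgtttacaagcta

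Ccnd3 supplied nearly all of the D-cyclin RNA. Ccnd3 (ENSMUSG00000034165, chromosome 17, 47505051 to 47599691, plus strand) had 16342.5 and 20636.8 expected counts, or 579 TPM in replicate 1 and 660 TPM in replicate 2 (620 ± 57.5, SD, n = 2). The 2 levels were close, and the gene ranked 211 among protein-coding genes by mean TPM. Ccnd2 (ENSMUSG00000000184, chromosome 6, 127125162 to 127152193, minus strand), which encodes cyclin D2, had 2565 and 7211 counts, or 22.4 and 55.7 TPM (39.1 ± 23.6, SD, n = 2). Replicate 2 was the higher library for Ccnd2, and the ratio of its counts, scaled to the mouse total, was 2.29 (exact binomial 95% interval 2.19 to 2.40). These intervals cover counting error only, and reads without molecular identifiers are not independent molecules.

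Ccnd1 (ENSMUSG00000070348, chromosome 7, 144929931 to 144939925, minus strand), which encodes cyclin D1, had 0 counts in both libraries. A count of 0 allows up to 3 counts, or 0.0403 and 0.0357 TPM over its longest coding transcript. The authors' upper credibility bounds, on the deposited scale, were 0.377 and 0.334 TPM. Ccnd3 therefore held 96.3% of the D-cyclin TPM in replicate 1 and 92.2% in replicate 2, and Ccnd2 held the rest. Without division by transcript length its share was 86.4% and 74.1% of the counts, since Ccnd2 has the longer transcript. The D cyclins summed to 601 and 716 TPM.

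E-cyclin RNA was found in 1 library only. Ccne2 (ENSMUSG00000028212, chromosome 4, 11191351 to 11204779, plus strand), which encodes cyclin E2, had 3275 counts and 71.9 TPM in replicate 1 and 0 counts in replicate 2. Set against 3 counts in replicate 2, the number that a 0 allows, it was 1340-fold higher in replicate 1. Ccne1 (ENSMUSG00000002068, chromosome 7, 38097984 to 38107534, minus strand), which encodes cyclin E1, had 203 counts and 5.23 TPM in replicate 1 and 0 in replicate 2. Set against 3 counts in the same way, it was 83.0-fold higher in replicate 1. These 2 folds are not lower limits, since the authors' credibility bounds, on the deposited scale, allow smaller gaps. The lower bounds in replicate 1 were 60.3 TPM for Ccne2 and 4.54 TPM for Ccne1. The upper bounds in replicate 2 were 0.926 and 0.695 TPM. Ccne2 held 93.2% of the E-cyclin TPM in replicate 1. The means over both libraries (35.9 ± 50.8 TPM for Ccne2 and 2.62 ± 3.70 TPM for Ccne1, SD, n = 2) have SDs larger than themselves, and neither library lies near its mean.

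Among the kinases, Cdk4 had the highest level in TPM summed over all transcripts. Cdk4 (ENSMUSG00000006728, chromosome 10, 127063534 to 127067920, plus strand), a partner of the D cyclins, had 15814 and 11135 counts, or 1137 and 737 TPM (937 ± 283, SD, n = 2). It ranked 130 among protein-coding genes. Cdk6 (ENSMUSG00000040274, chromosome 5, 3341485 to 3531008, plus strand), the other partner of the D cyclins, had 1135 and 2062 counts, or 22.1 and 24.6 TPM (23.3 ± 1.73, SD, n = 2). Its 2 TPM values were close, whereas the ratio of its scaled counts was 1.48 (exact binomial 95% interval 1.38 to 1.59), and its reads were assigned to a longer transcript in replicate 2. Cdk4 exceeded Cdk6 by 51.4-fold in replicate 1 and by 30.0-fold in replicate 2, in TPM.

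Cdk2 (ENSMUSG00000025358, chromosome 10, 128697939 to 128705031, minus strand), the partner of the E cyclins, was unlike Cdk6 in how far its 2 libraries lay apart. It had 1213 counts and 27.1 TPM in replicate 1, and 11216 counts and 212 TPM in replicate 2 (120 ± 131, SD, n = 2). The ratio of its scaled counts was 7.54 (exact binomial 95% interval 7.10 to 8.002). Cdk4 held 95.8% and 75.7% of the TPM of the 3 kinases, Cdk2 2.29% and 21.8%, and Cdk6 1.86% and 2.52%. By counts, not divided by length, Cdk4 held 87.1% in replicate 1, but in replicate 2 Cdk4 held 45.6% and Cdk2 45.9%, so Cdk4 did not lead there. The share of Cdk2 was thus several times higher in replicate 2, and that of Cdk4 lower. The library with E-cyclin RNA was the one with the lower Cdk2 level.

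The promoter of Cdk4, the kinase of highest level, is shown as the RefSeq window of GRCm38.p6 from 250 bases before to 50 bases after the gene's start, at chr10:127063285-127063584 on the plus strand. It was chosen after the motif search had been run. Capitals mark CACGTG, the E-box bound by Myc and related factors, whose letters read the same on both strands.
Cdk4 promoter: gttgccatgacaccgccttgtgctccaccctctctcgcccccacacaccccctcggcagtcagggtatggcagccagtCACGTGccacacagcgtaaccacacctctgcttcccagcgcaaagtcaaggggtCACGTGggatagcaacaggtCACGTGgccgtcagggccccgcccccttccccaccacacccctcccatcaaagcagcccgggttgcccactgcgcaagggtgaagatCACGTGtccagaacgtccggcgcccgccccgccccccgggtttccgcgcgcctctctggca
The 4 matches begin 172, 118, 98 and 11 bases upstream of the start. Of 32851 promoter windows of 300 bases, 7.15% held at least 1 such match and 0.0244% held at least 4. Of 9 windows found for 7 of the 10 genes, 3 held CACGTG (1 each for Cdk4, Cdk6 and Cdkn2c), and Ccnd1, Ccnd2 and Ccne2 had no window in the table. TTCCCGC, letters bound by E2F factors, was searched on both strands too and was found in 1 window each of Cdk2 (2 matches) and Cdkn2c, and at least once in 4.60% of all windows. A match of letters is a description of the sequence, and binding was not measured here.

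The inhibitors p27 and p18 were read at levels far below Cdk4, and they differed in how steady they were. Cdkn1b (ENSMUSG00000003031, chromosome 6, 134920401 to 134925513, plus strand) had 874 and 719 counts, or 18.5 and 13.6 TPM (16.0 ± 3.45, SD, n = 2), and its 2 libraries were close. Cdkn2c (ENSMUSG00000028551, chromosome 4, 109660876 to 109667189, minus strand) had 973 counts and 47.3 TPM in replicate 1, and 1 count and 0.0427 TPM in replicate 2 (23.7 ± 33.4, SD, n = 2). The ratio of its scaled counts, replicate 2 over replicate 1, was 0.000838 (exact binomial 95% interval 2.12e-05 to 0.00468). Cdkn2c therefore held 71.9% of the TPM of the 2 inhibitors in replicate 1 and 0.314% in replicate 2, where Cdkn1b held 99.7%.

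**Figure D2:**
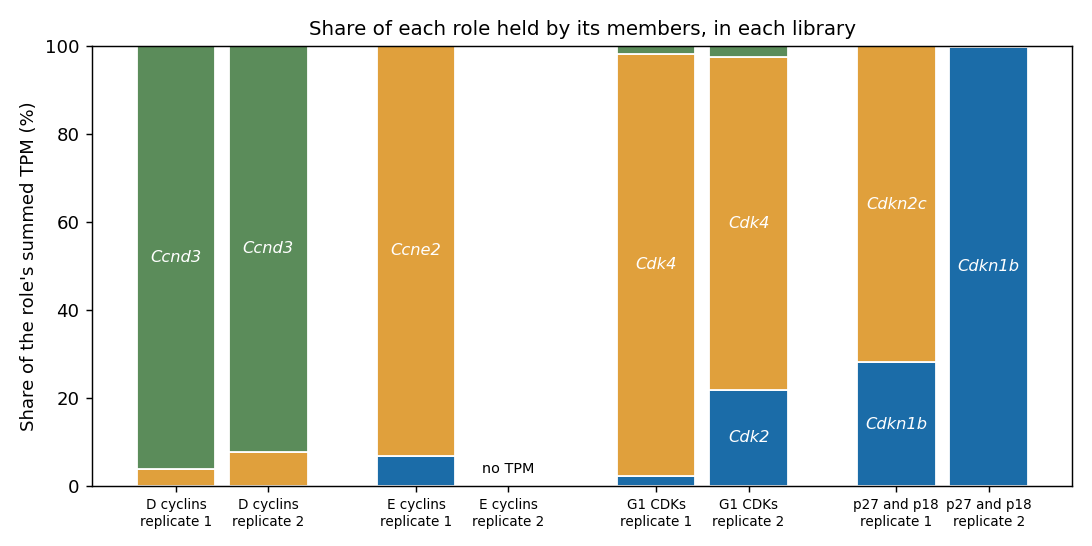
Share of each role's summed TPM, in percent, held by its members in each library; colours separate the genes of a role, and the unlabelled thin segments are Ccnd2 (below Ccnd3), Ccne1 (below Ccne2), Cdk2 of replicate 1 (below Cdk4) and Cdk6 (above Cdk4). Ccnd3 and Cdk4 fill most of their bars in both libraries, E cyclins have no TPM in replicate 2, and p18 (Cdkn2c) all but vanishes there.

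By mean TPM the order was Cdk4, Ccnd3, Cdk2, Ccnd2, Ccne2, Cdkn2c, Cdk6, Cdkn1b, Ccne1 and Ccnd1. Of the 9 pairs of neighbours in this order, 4 had ranges over the 2 libraries that did not overlap: Cdk4 above Ccnd3, Ccnd3 above Cdk2, Cdk6 above Cdkn1b, and Cdkn1b above Ccne1. The ranges of the other 5 pairs of neighbours overlapped. Ccne2 and Cdkn2c, each near or at 0 in replicate 2, span the levels of several genes placed below them.

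Most of the Cdk4 TPM was assigned to transcripts not annotated as coding for protein, several of them short. By expected counts, which do not weight short transcripts up, coding transcripts held 49.0% and 54.8% of Cdk4 and 89.2% and 89.1% of Ccnd3. Cdk4-209, a retained-intron transcript of 468 bases, held 42.2% and 36.1% of the gene's TPM, and 443 of its bases also lie in the full-length coding transcript Cdk4-201. The coding Cdk4-205 held 22.8% and 28.5%, Cdk4-208, annotated for nonsense-mediated decay, 17.0% and 13.4%, and the retained-intron Cdk4-206 10.5% and 10.8%. Cdk4-201, named after its values were seen, held 7.06% and 3.61%. All coding transcripts of Cdk4 together came to 30.2% and 39.5% of its TPM, or 343 and 291 TPM. For Ccnd3 the coding share was 69.9% and 69.8%, or 405 and 461 TPM, led by Ccnd3-205 with 47.8% and 57.3%, while the retained introns Ccnd3-203 and Ccnd3-209 held between 14.5% and 14.99% each. Over coding transcripts alone, an alternative chosen after seeing the data, Ccnd3 exceeded Cdk4 by 1.18-fold in replicate 1 and 1.58-fold in replicate 2, which turns their order. On that scale Cdk4 exceeded Cdk6 by 15.5-fold and 11.9-fold. Cdk4-201, the Cdk4 transcript with the longest coding sequence, had 80.2 and 26.6 TPM, or 3.63-fold and 1.08-fold the level of Cdk6, and in replicate 2 it lay below both Cdk2 transcripts.

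Of 6 genes with at least 10 counts in both libraries, 4 had the same dominant transcript in each: Ccnd2, Ccnd3, Cdk4 and Cdkn1b. For Ccnd2 this was fixed beforehand, since it has only 1 annotated transcript. The exceptions were Cdk2 and Cdk6. All 27.1 TPM of Cdk2 in replicate 1 fell to Cdk2-201, which joins the flanking exons directly. In replicate 2, Cdk2-201 had 67.6 TPM (31.8%) and Cdk2-202, with the additional exon shown above, 145 TPM (68.2%). Cdk2-202 was thus read in the library with the higher Cdk2 level only. Cdk6-201 held 88.9% of the Cdk6 TPM in replicate 1 and 0% in replicate 2, where Cdk6-202 held 100%; both transcripts carry a coding sequence of 978 bases. In replicate 1, Ccne2-207 held 57.9% of the Ccne2 TPM and Ccne2-201 15.9%, and the processed transcripts Ccne2-205 and Ccne2-204 held 17.2% and 8.82%. Ccne2-207 and Ccne2-201 are both listed at 3006 bases, so they also differ outside the 3 bases shown above. Ccne1-201 held all Ccne1 TPM there, and Cdkn2c-201 held all Cdkn2c TPM in both libraries.

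**Figure D3:**
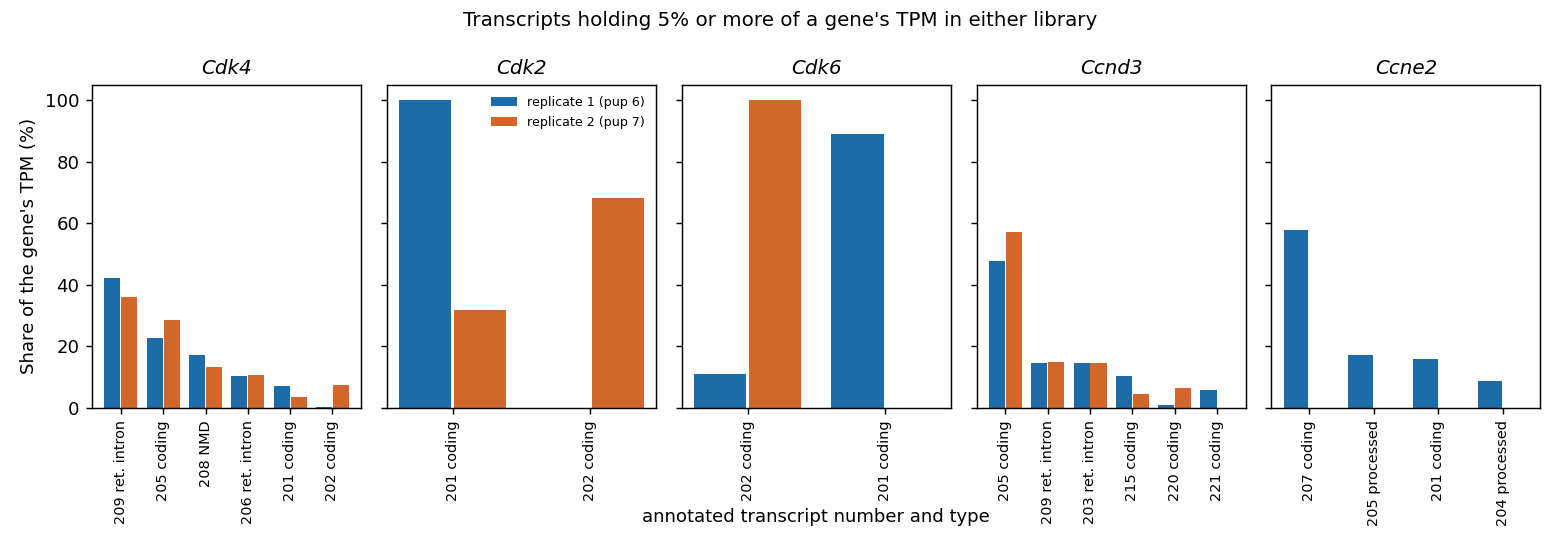
Share of a gene's TPM, in percent, for each annotated transcript with 5% or more in either library, for 5 genes with more than 1 such transcript; bars are libraries, and the axis gives transcript number and annotated type. Cdk4 and Ccnd3 keep the same leading transcript in both libraries, while Cdk2-202 appears in replicate 2 only and Cdk6 moves from 201 to 202.

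Differences between the pups were read as log2 ratios of TPM + 1, replicate 2 over replicate 1, for genes with a mean of at least 100 counts. Of the 9 genes that met this, 4 were at least 4-fold apart, beside 50.9% of all 9341 genes compared, so their share (44.4%) was near the background. Ccne1, Ccne2 and Cdkn2c were higher in replicate 1 (background 21.5%), and Cdk2, at 2.92, was higher in replicate 2 (background 29.4%). The former 3 genes had 3 or fewer counts in replicate 2, as did 35.1% of all genes in 1 of the libraries. The ratios of the other genes were 1.28 for Ccnd2, 0.19 for Ccnd3, 0.14 for Cdk6, -0.42 for Cdkn1b and -0.63 for Cdk4, against a median over all genes of 0.17. Over all genes, fewer were 4-fold apart at higher counts. With means of 100 to 1000 counts, 77.5% of genes were at least 4-fold apart, and Ccne1 and Cdkn2c were 2 of the 3 members in that range. Between 1000 and 3000 counts the share was 50.7%, and of Ccne2 and Cdk6, which lie there, Ccne2 was among those apart. Between 3000 and 10000 counts the share was 18.6%, and of Cdk2 and Ccnd2, which lie there, Cdk2 was among those apart. Between 10000 and 30000 counts the share was 2.43%, and neither Cdk4 nor Ccnd3 was among those apart.

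**Figure D4:**
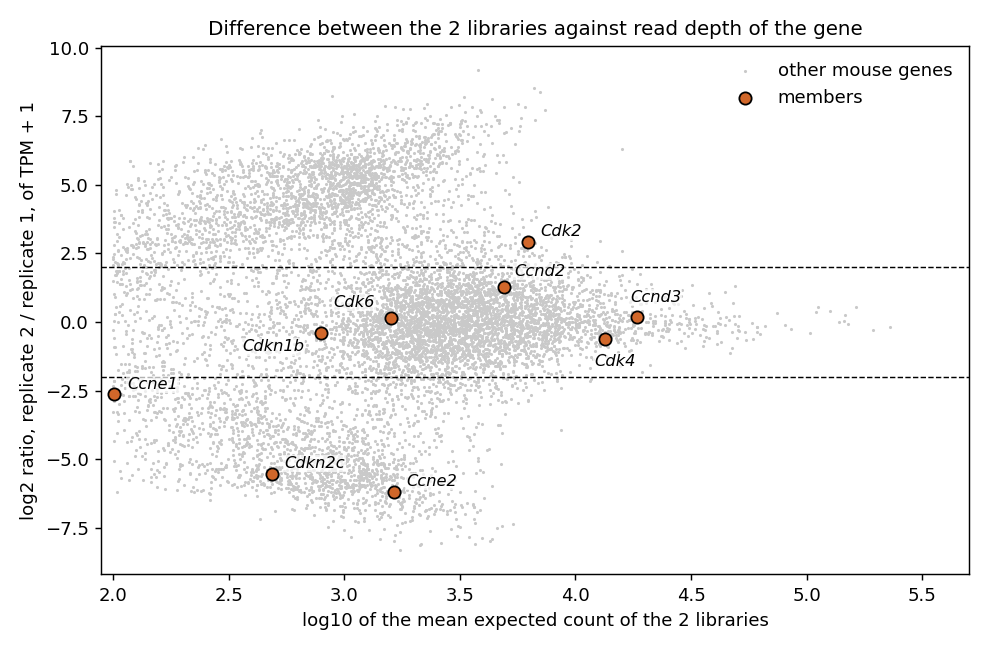
Log2 ratio of TPM + 1, replicate 2 over replicate 1, against the log10 mean expected count, for mouse genes with a mean of at least 100 counts; orange points are the 9 genes compared and dashed lines mark 4-fold. Cdk4 and Ccnd3 lie near 0 at high counts, Cdk2 above the upper line, and Ccne1, Ccne2 and Cdkn2c below the lower one within a cloud of other genes.

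Of the 10 genes, 7 overlap another annotated gene, in each case one on the opposite strand. Ccne2 shares 5622 bases of its span with Ints8, which had 58 and 1398 counts, and Cdk4 shares 641 bases with Tspan31, which had 0 in both libraries. Whether the counting used strand is not given in the sources used here, so reads from shared exons cannot be assigned with certainty.

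Among the protein-coding genes whose 2 levels lay nearest to those of Cdk4 (Euclidean distance in log2(TPM + 1) over the 2 libraries) were Cd3g (1120 and 715 TPM, distance 0.0487) and Sod1 (0.126). Those nearest to Ccne1 were Bahd1, Srgap2 and Nsmce4a, all at 0 in replicate 2 and between 5.18 and 5.27 TPM in replicate 1. With only 2 libraries, such nearness places genes at like levels and says nothing more.

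Of the 6 other CDK inhibitors, 4 were read in both libraries. Cdkn2d, which encodes p19 and, like p18, binds Cdk4 and Cdk6, had 178 and 433 TPM, more than Cdkn1b and Cdkn2c in each library. It exceeded Cdkn1b by 9.64-fold and 31.9-fold. Cdkn1a (p21) had 81.9 and 34.7 TPM. Cdkn3, a phosphatase that acts on CDKs, had 1230 counts in replicate 1 and 1 in replicate 2, while Cdkn2b (p15) had 0 and 1468. Cdkn2a was at 0 in both libraries. Of 5 inhibitors compared, 3 were at least 4-fold apart, beside 50.9% of all genes and 77.5% of those with 100 to 1000 counts.

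All 3 pocket proteins, the substrates of these kinases, were read in both libraries: Rb1 at 51.6 and 84.3 TPM, Rbl1 (p107) at 113 and 6.76 TPM, and Rbl2 (p130) at 40.0 and 21.03 TPM. By counts Rb1 went the other way, with 837 in replicate 1 and 602 in replicate 2. The ratio of its scaled counts was 0.586 (exact binomial 95% interval 0.527 to 0.652). Among the pocket proteins only Rbl1 was at least 4-fold apart, beside 50.9% of all genes. Of the 10 E2F and DP factors, 7 were read in both libraries, led by Tfdp1 (29.4 and 88.5 TPM), E2f4 (76.0 and 31.3 TPM) and Tfdp2 (48.1 and 8.49 TPM). E2f8 had 3365 counts against 2, E2f7 1935 against 1 and E2f6 646 against 1, all higher in replicate 1, while E2f5 had 458 counts in replicate 2 only. E2f1 and E2f3 were at 0 in both libraries. Of 8 factors compared, 6 were at least 4-fold apart, beside 50.9% of all genes. The share was 77.5% of genes with 100 to 1000 counts, where E2f5, E2f6 and E2f7 lie. It was 50.7% of those with 1000 to 3000, where the others lie.

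Of the 20 S-phase genes known as E2F targets, 15 were read in both libraries, with sums of 2933 and 1910 TPM. The highest were Pcna, the polymerase clamp (380 and 318 TPM), Cdk1 (299 and 389 TPM), Ccna2 (376 and 223 TPM) and Mcm7 of the replicative helicase (289 and 171 TPM). Among the 17 compared, 13 were higher in replicate 1, the library with E-cyclin RNA, and 4 in replicate 2, with a median log2 ratio of -0.75 against 0.17 over all genes. Of the 17, 4 were at least 4-fold apart, beside 50.9% of all genes, 50.7% of genes with 1000 to 3000 counts and 18.6% of those with 3000 to 10000. Cdc45 (2765 counts) and Mybl2 (1828 counts) were read in replicate 1 only, and Cdc6 (2349 counts) in replicate 2 only. Whether this leaning goes beyond chance cannot be told from 1 library per pup.

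Of the 9 regulators that activate or restrain CDKs, 5 were read in both libraries. Of 8 compared, 5 were at least 4-fold apart, beside 50.9% of all genes, and 3 of these were higher in replicate 2 (background 29.4%). Ccnh (160 and 150 TPM), the cyclin of the CDK-activating kinase, was steady. Its partners Mnat1 (16.3 and 82.5 TPM) and Cdk7 (13.0 and 60.3 TPM, named after its values were seen) were higher in replicate 2. Cdc37, the co-chaperone that delivers Cdk4 to Hsp90, had 46.4 and 165 TPM. Cdc25a and Pkmyt1 were read in replicate 1 only (946 and 2387 counts), Cdc25b in replicate 2 only (4266 counts), and Wee1 in neither. Of the 9 genes for the ubiquitin ligases of p27 and G1 cyclins, 6 were read in both libraries. Skp1a (519 and 616 TPM), Cks1b (459 and 240 TPM), Cks2 (293 and 364 TPM) and Rbx1 (199 and 292 TPM) were highest. Skp2, which recognises p27, had 0 and 2409 counts, Fbxo4 had 1255 and 0, and Fbxw7 had 8 and 1. Of 7 ligase genes compared, 2 were at least 4-fold apart, beside 50.9% of all genes and 18.6% of those with 3000 to 10000 counts.

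Of the 12 transcription factors known to drive or restrain G1 in thymocytes, 9 were read in both libraries, and 2 of 9 compared were at least 4-fold apart. Beside this stand 50.9% of all genes, 50.7% of genes with 1000 to 3000 counts and 2.43% of those with 10000 to 30000. Myb (204 and 90.7 TPM), Ikzf1 (139 and 129 TPM), Stat5b (97.4 and 111 TPM) and Myc (94.2 and 104 TPM) were highest, and Mycn had 2142 counts in replicate 1 and 0 in replicate 2. Of the 12 atypical cyclins and CDKs, 6 were read in both, led by Ccng2 (182 and 119 TPM), Ccnt1 (102 and 110 TPM), Cdk9 (30.04 and 132 TPM) and Ccni (28.4 and 5.05 TPM). Cdk8 had 1133 counts in replicate 1 only, Ccng1 had 2 and 737 counts, and Ccnc, Cdk5, Cdk14 and Cdk18 were read in neither library. Of 7 atypical genes compared, 4 were at least 4-fold apart, beside 50.9% of all genes and 77.5% of those with 100 to 1000 counts.

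**Figure D5:**
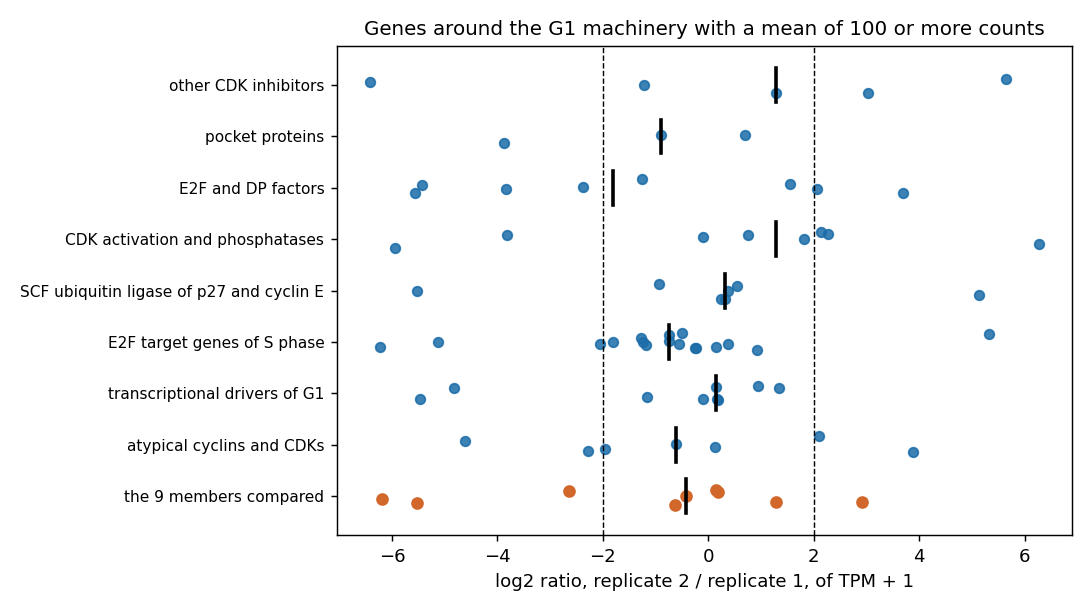
Log2 ratio of TPM + 1, replicate 2 over replicate 1, for genes with a mean of at least 100 counts in 8 lists around the G1 machinery (blue) and for the 9 genes compared (orange); each point is 1 gene, black bars are medians and dashed lines mark 4-fold. The median is -0.75 for the E2F targets and -0.42 for the 9 genes compared, and every list has genes beyond a dashed line.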

How the data were processed

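Both libraries were used, with groups and replicate numbers from the labels. The deposited tables give expected counts per gene and transcript, TPM with posterior mean versions, the share of each transcript in percent, and bounds of a credibility interval for TPM (treated as a score, since its level is not stated), per the file headers. The assembly was mm10, per the labels, and the deposited notes name annotation M4. No aligner, counting program or strand setting is given in the sources used here. TPM was divided by its sum over mouse genes, which leaves out 96 spike-ins and other entries. Names, types and positions come from GENCODE M21 (GRCm38), which matched 42462 of 43346 genes. The members and lists were chosen with earlier results of these data known. Genes are named as follows: all 10 members; per pathway list the 4 of highest mean TPM and up to 4 with at least 100 counts in 1 library and 3 or fewer in the other; per marker list the 3 highest and defining markers at 0; the 3 genes nearest to the highest and to the lowest member above 0; and up to 4 transcripts per member with at least 5% of TPM. Some genes that meet this rule are not reported here. Ratios used TPM + 1. Scripts ran in Python 3.11.15 with pandas 2.3.3 and were tested on simulated data. edgeR 4.0.16 and DESeq2 1.42.0 gave size factors only, and counts were rounded for them. No test was run, because 1 group has no contrast; the precision is that of 2 libraries. Alternatives changed the scale, pseudocount, fold, count minimum and library.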

Additional observations from a re-analysis of the deposited data

How the results depend on the processing

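The summed level of the 10 genes (1817 TPM) was 2187 TPM when rescaled over protein-coding genes outside the mitochondrial genome, and 1001 TPM over coding transcripts only, a setting chosen after seeing the data; it ranged from 1703 to 1930 TPM when either replicate was left out. By expected counts, not divided by length, the mean share of Ccnd3 among D cyclins fell from 94.2% to 80.3% and that of Cdk4 among the 3 kinases from 85.8% to 66.3%; over coding transcripts the latter was 71.3%. Leaving out a replicate gave 92.2% to 96.3% and 75.7% to 95.8%. At 8-fold, 2 genes instead of 4 were apart, beside 41.0% of all genes instead of 50.9%. With a pseudocount of 10 TPM, 3 genes instead of 4 were at least 4-fold apart, and the share of all genes fell from 50.9% to 27.4%. No ratio changed sign under any scaling, pseudocount or transcript setting run. For Cdk6 the ratio was 0.68 with TMM factors and 0.72 with DESeq2 factors, against 0.14. Both of these settings used counts not divided by transcript length, and Cdk6 reads were assigned to a longer transcript in replicate 2. Counts of genes read in both libraries, of separated neighbours and of shared dominant transcripts stayed within 1.5 times of their values. Without 1 library no difference between the pups exists, so that setting was not run for it. No paired analysis was possible because there is 1 group.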

Other observations

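Set among all cyclin and CDK genes, chosen by name after the values were seen, the G1 genes held both top places in TPM summed over all transcripts. Of 25 cyclin genes, 15 were read in both libraries, 4 in 1 and 6 in neither. Ccnd3 had the highest mean level and 21.7% and 25.2% of all cyclin TPM, ahead of the mitotic cyclins Ccnb1 (327 and 545 TPM) and Ccnb2 (458 and 378 TPM) and of Ccna2 (376 and 223 TPM) of S and G2 phase. Within replicate 2, Ccnb1 was at 545 TPM and Ccnd3 at 660 TPM. Of 18 Cdk genes, 11 were read in both libraries, 3 in 1 and 4 in neither. Cdk4 held 67.9% and 46.2% of all Cdk TPM, and Cdk1, the mitotic kinase, followed with 17.9% and 24.4%. Over coding transcripts of the G1 genes, neither place was kept in replicate 2: those of Cdk4 (343 and 291 TPM, mean 317) lay below all Cdk1 TPM (299 and 389, mean 344) there and in the mean, and those of Ccnd3 (405 and 461 TPM) lay below all Ccnb1 TPM (545) in replicate 2 and below all Ccnb2 TPM (458) in replicate 1. Ccnf, a cyclin of G2, had 67 and 3992 counts, and Cdk20 had 2364 and 216, so wide gaps between the pups were not limited to the G1 genes.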
